A study of Mus musculus with 9 samples.

Results

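The genes described here encode the heterotrimeric G protein subunits of retinal light signalling: the transducins of rods and cones and the subunits used by ON bipolar cells. They are Gnat1, Gnat2, Gnb1, Gnb3, Gnb5, Gngt1, Gngt2, Gng13 and Gnao1, chosen by gene name from the array's annotation with all of their probes kept. They are 9 of the 37284 gene names on the array and were measured by 15 probes, with 1 probe for 5 of the genes and several for the other 4.

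The samples were mouse retinal organoids, small retinas that form when dissociated ES or iPS cells reaggregate in suspension (SFEBq). Wild-type organoids (WT, also labelled NCT) were set beside a Bhlhb4 knockout (B4KO; Bhlhe23 in current naming) and an Islet-1 knockout (Isl1KO), both intended to reduce bipolar cells. Each line was sampled once on differentiation days 10, 16 and 23 (DD10, DD16 and DD23), and each of the 9 samples pooled 5 organoids. No combination of line and day was repeated, so a day is represented by 3 arrays of different lines and a line by 3 arrays of different days. Whether the knockouts stem from 1 clone or several is not stated in the labels. B4KO lay alone on 1 slide, with WT and Isl1KO together on the other, so for B4KO the line and the slide cannot be told apart.

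A heterotrimeric G protein holds an alpha subunit, which binds GTP when a receptor is activated, and a beta and gamma pair that stays together. In rods, light activates transducin made of Gnat1, Gnb1 and Gngt1, and in cones it activates the form made of Gnat2, Gnb3 and Gngt2; the alpha subunit then relieves the inhibition of the phosphodiesterase PDE6. In ON bipolar cells the glutamate receptor mGluR6 acts through Go, whose alpha subunit is the product of Gnao1, joined by Gnb3 and Gng13, and keeps the TRPM1 channel shut in the dark. Gnb5 is an atypical beta subunit: it pairs with RGS proteins, which speed the return of alpha subunits to rest in photoreceptors and bipolar cells.

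Promoter windows were available for 6 of the 9 genes in a RefSeq table of build GRCm38.p6, each running from 250 bases before to 50 bases after a start site. They were searched on both strands for TAATCC, the letters bound by the photoreceptor factors Otx2 and Crx, for CTAATT, a related homeodomain string, and for TGCTGA, found in sites of the rod factor Nrl. Gng13 had 2 windows, so 7 windows were searched. TAATCC was in 3 of the 7, against 7.06% of all 32851 windows of this length. CTAATT was in 1, against 8.21% of all windows. TGCTGA was in none of them, against 19.5% of all windows. The windows holding TAATCC are shown because their genes span cone, rod and RGS-linked subunits that behaved differently over time; capitals mark the match, which in each case reads GGATTA because TAATCC lies on the opposite strand. No match overlapped another.
Gnat2 promoter, chr3:108092816-108093115, plus strand: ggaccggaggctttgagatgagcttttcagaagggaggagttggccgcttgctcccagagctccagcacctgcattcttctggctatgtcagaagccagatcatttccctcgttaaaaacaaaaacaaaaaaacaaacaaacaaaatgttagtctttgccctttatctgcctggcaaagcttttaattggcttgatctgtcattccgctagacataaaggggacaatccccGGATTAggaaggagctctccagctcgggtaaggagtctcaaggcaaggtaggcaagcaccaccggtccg
Gngt1 promoter, chr6:3993758-3994057, plus strand: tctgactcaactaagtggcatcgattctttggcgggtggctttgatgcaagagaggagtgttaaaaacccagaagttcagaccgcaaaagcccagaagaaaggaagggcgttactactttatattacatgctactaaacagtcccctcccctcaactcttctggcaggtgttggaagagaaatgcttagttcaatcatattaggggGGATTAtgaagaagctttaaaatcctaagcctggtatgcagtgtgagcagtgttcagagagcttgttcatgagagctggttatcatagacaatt
Gnb5 promoter, chr9:75306038-75306337, plus strand: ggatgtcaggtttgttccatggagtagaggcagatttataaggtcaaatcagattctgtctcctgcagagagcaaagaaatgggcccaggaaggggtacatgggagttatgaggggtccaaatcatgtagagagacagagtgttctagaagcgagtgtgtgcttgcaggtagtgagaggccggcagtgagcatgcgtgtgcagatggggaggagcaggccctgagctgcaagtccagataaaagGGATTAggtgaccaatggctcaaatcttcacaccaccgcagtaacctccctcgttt
The match began 19 bases before the start site of Gnat2, 44 before that of Gngt1 and 6 before that of Gnb5. The single CTAATT match began 168 bases before the start site of the second Gng13 window. The windows of Gnb1 and Gnao1 held none of the 3 strings. These matches describe the letters of the windows and were not tested as sites.

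Values below are log2 of the processed spot intensity over the 75th percentile of the array, so 0 is the brightness of that percentile. A probe's level depends on its own sequence, and levels of different probes are therefore not set against each other. Each array held 59305 gene spots, of which 57.3% to 67.8% were well above background, a flag of the scanner software that compares a spot with its local background; none was saturated. A gene entered the tests if its brightest probe carried that flag on 3 or more of the 9 arrays, which left 23594 genes and 8 of the 9 subunits; Gnat1 was not tested. Tests used limma with line and day as additive terms and Benjamini-Hochberg adjusted p below 0.05 over all tested genes. Errors are standard errors (SE) of that fit, whose spread is the departure of single arrays from additivity of line and day. In pooled tissue, fewer cells of a type and less RNA per cell cannot be told apart. As a check of the tissue, Crx, a photoreceptor factor, was well above background on all 9 arrays. Grm6, which encodes mGluR6, was so on 2 arrays and Vsx1 and Opn1mw on none. Of the 7 genes listed as ON bipolar markers, which include Grm6 and Vsx1, Cabp5 and Prkca were so on all 9 arrays, Sebox on 7, Lrtm1 on 6 and Car8 on 3. Whether each of the 7 is limited to ON bipolar cells was not tested, and Cabp5 already read 4.75 to 5.19 at DD10. Of the 5 tested, 1 rose and 1 fell from DD10 to DD16, where 21.9% and 18.8% of all genes did. From DD16 to DD23, 4 rose and none fell, against 19.3% and 21.9% of all genes. Of these, Car8 was well above background only at DD23 and so entered the tests through that day alone. Lrtm1 was well above background on no DD16 array, so its early fall and later rise rest on dim spots. From DD10 to DD23 Lrtm1 fell by 1.18. As a check of the labels, the probe for the targeted gene Bhlhe23 was not well above background in B4KO at DD16 and DD23, nor in Isl1KO at DD23. On the bound set by the dimmest measured spots, WT was at least 3.41-fold above B4KO at DD16 and at least 1.12-fold at DD23, and at least 1.80-fold above Isl1KO at DD23. At DD10 B4KO differed from WT by -0.22, and Isl1KO differed from WT by 0.25 at DD10 and -1.73 at DD16. Isl1KO differed from WT by -0.65, -1.88 and -1.58 at one Isl1 probe and by 0.37, -0.76 and -0.26 at the other. Where these probes lie relative to the deleted parts is not given in the labels.

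The cone transducin subunits and Gnb3 rose across both intervals in all 3 lines. Gnat2, the alpha subunit of cone transducin (probe at chr3:107904135-107904194 of the array's build, mm9), read -3.46, 0.13 and 3.07 in WT, -3.52, -0.05 and 2.96 in B4KO and -3.77, -0.15 and 3.56 in Isl1KO at DD10, DD16 and DD23. The 3 days did not overlap, and the order of the lines changed between days. The difference was 3.56 ± 0.19 (SE) from DD10 to DD16, or 11.8-fold (adjusted p = 0.000275, limma), and 3.22 ± 0.19 from DD16 to DD23, or 9.33-fold (adjusted p = 0.000657).

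Gnb3, the beta subunit of cone transducin and of Go in ON bipolar cells (chr6:124784574-124784633, mm9), read -2.92, 1.60 and 4.25 in WT, -2.88, 1.86 and 4.37 in B4KO and -3.06, 1.26 and 4.48 in Isl1KO on the same days. Its days did not overlap either, and the lines lay within 0.60 of each other on every day. It rose by 4.53 ± 0.14 from DD10 to DD16 (23.1-fold, adjusted p = 0.000129, limma) and by 2.79 ± 0.14 from DD16 to DD23 (6.93-fold, adjusted p = 0.000634).

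Gngt2, the gamma subunit of cone transducin (chr11:95706975-95707034, mm9), read -4.26, 3.72 and 6.58 in WT, -2.94, 3.79 and 6.72 in B4KO and -4.07, 3.43 and 6.79 in Isl1KO. The WT sample at DD10 was not well above background and the B4KO sample was the highest of that day. From DD10 to DD16 it rose by 7.40 ± 0.27 (adjusted p = 0.000149, limma), with the dim WT value entering as measured, and from DD16 to DD23 by 3.05 ± 0.27 (8.28-fold, adjusted p = 0.00113). Its second probe (chr11:95706988-95707047, mm9), which overlaps the first over most of its length, gave 7.32 and 3.09 for these intervals. In WT, on the bound set by the dimmest measured spots, the DD16 sample was at least 252-fold above the DD10 sample.

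**Figure D1:**
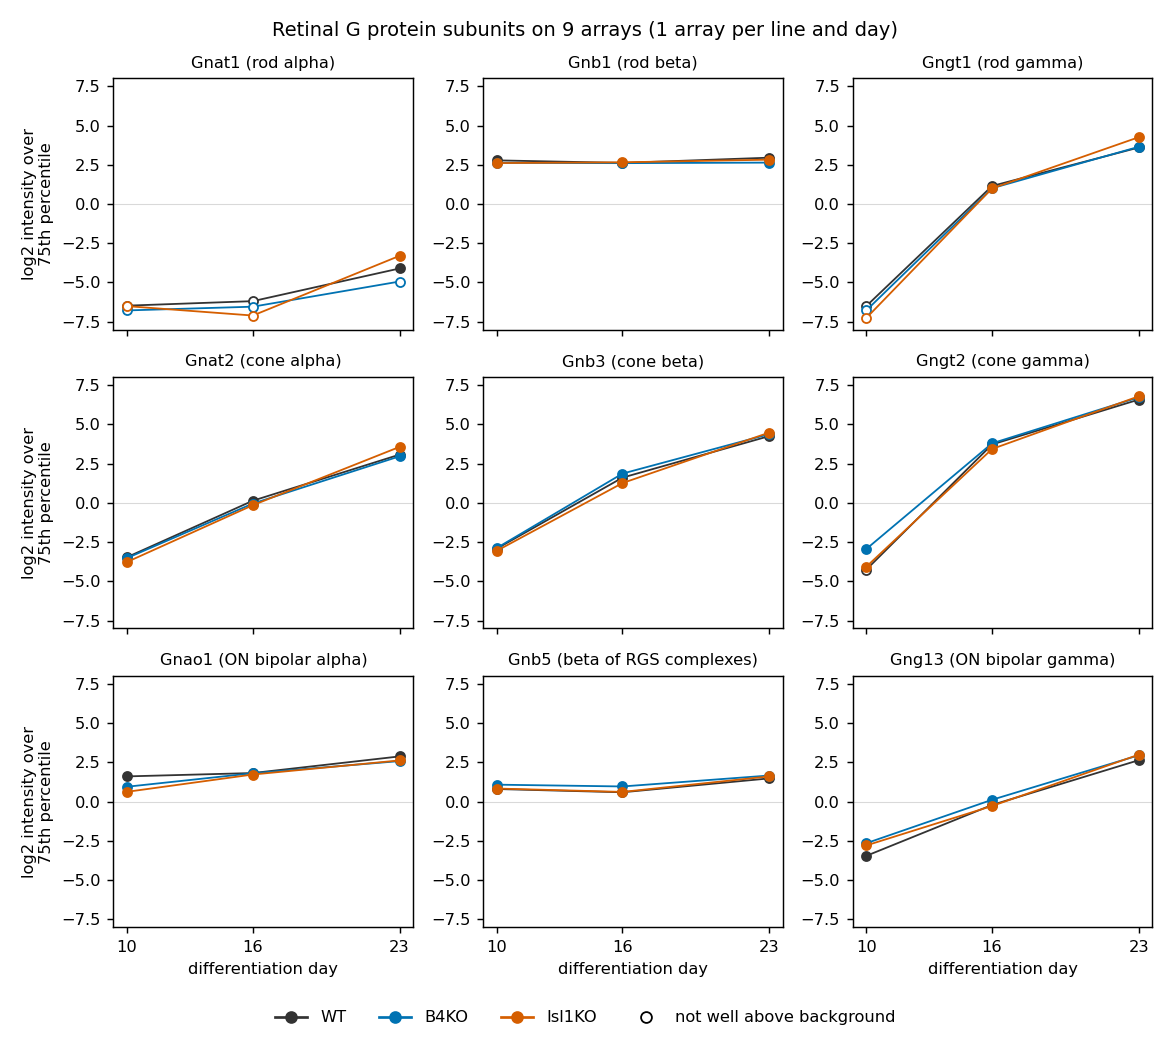
Log2 intensity over the array's 75th percentile (y axis) against differentiation day (x axis) for the brightest probe of each gene, 1 point per array, with colours for WT, B4KO and Isl1KO and open points where a spot was not well above background. Gnat2, Gnb3, Gngt2, Gngt1 and Gng13 climb at each step in every line, Gnb1 stays between 2.60 and 2.95, and Gnat1 is above background only in 2 samples of DD23.

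The rod transducin subunits did not follow one course. Gngt1, the gamma subunit of rod transducin (chr6:3946662-3946721, mm9), read -6.50, 1.15 and 3.60 in WT, -6.78, 1.0 and 3.65 in B4KO and -7.27, 0.99 and 4.26 in Isl1KO. None of the DD10 samples was well above background and all samples of the later days were. The DD16 samples were at least 60.4-fold above those of DD10 (adjusted p = 0.000129, limma), and the DD23 samples at least 416-fold. From DD16 to DD23 the gene rose by a measured 2.79 ± 0.26, or 6.90-fold (adjusted p = 0.00124). The probe that reads Gngt1 has a 60-base sequence with 1 frame free of stop codons and is shown because these bounds rest on it alone.
Gngt1 probe: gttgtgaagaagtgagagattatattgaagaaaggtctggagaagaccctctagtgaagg

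Gnat1, the alpha subunit of rod transducin (chr9:107577023-107577082, mm9), read -6.48, -6.19 and -4.11 in WT, -6.78, -6.54 and -4.94 in B4KO and -6.51, -7.11 and -3.30 in Isl1KO. It was well above background only at DD23 and only in WT and Isl1KO. The limit differed by array: the dimmest spot with that flag at DD23 read -4.71 in B4KO, -4.98 in WT and -5.40 in Isl1KO. Against DD16 of the same line, the DD23 sample was at least 1.08-fold higher in WT and at least 3.60-fold higher in Isl1KO. With every gene tested regardless of brightness, Gnat1 gave 2.50 ± 0.41 from DD16 to DD23 (adjusted p = 0.0141, limma) and -0.02 ± 0.41 from DD10 to DD16 (adjusted p = 0.970), but the earlier values lie below what the arrays measure. So at DD16 the gamma subunit of rod transducin was measured in all 3 lines and the alpha subunit in none. Each rests on 1 probe, and a difference in sensitivity between the probes was not tested.

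Gnb1, the beta subunit of rod transducin and of many other G proteins outside the retina (chr4:154932824-154932883, mm9), read 2.78, 2.62 and 2.95 in WT, 2.62, 2.60 and 2.64 in B4KO and 2.61, 2.66 and 2.82 in Isl1KO. All 9 values lay between 2.60 and 2.95, and the days overlapped. The differences were -0.05 ± 0.09 from DD10 to DD16 (adjusted p = 0.694, limma) and 0.18 ± 0.09 from DD16 to DD23 (adjusted p = 0.142). The second Gnb1 probe gave -0.06 and 0.02. With quantile normalization the difference from DD10 to DD23 became 0.29 and passed the threshold (adjusted p = 0.0404), against 0.13 (adjusted p = 0.218).

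Over these 8 tested genes, 6 rose from DD10 to DD16, where 40.7% of all tested genes were called and 21.9% rose. From DD16 to DD23, 7 of 8 rose, where 41.2% of all genes were called and 19.3% rose. None of the 8 fell in either interval, against 18.8% and 21.9% of all genes. Their median difference was 3.20 and then 2.79, against 0.03 and 0.01 over all tested genes; with Gngt1 at its bound the first median is the same. From DD10 to DD23, 7 of 8 rose, and none fell, where 60.7% of all genes were called, 31.6% rose and 29.2% fell. The filter kept genes that are bright on at least some arrays, so these counts are over the tested genes and leave out Gnat1. The 2 intervals share the DD16 samples. Without B4KO, that is on the slide of WT and Isl1KO alone, the counts were 5, 6 and 7. There 4899, 6596 and 11605 of the 23594 tested genes were called in either direction.

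**Figure D2:**
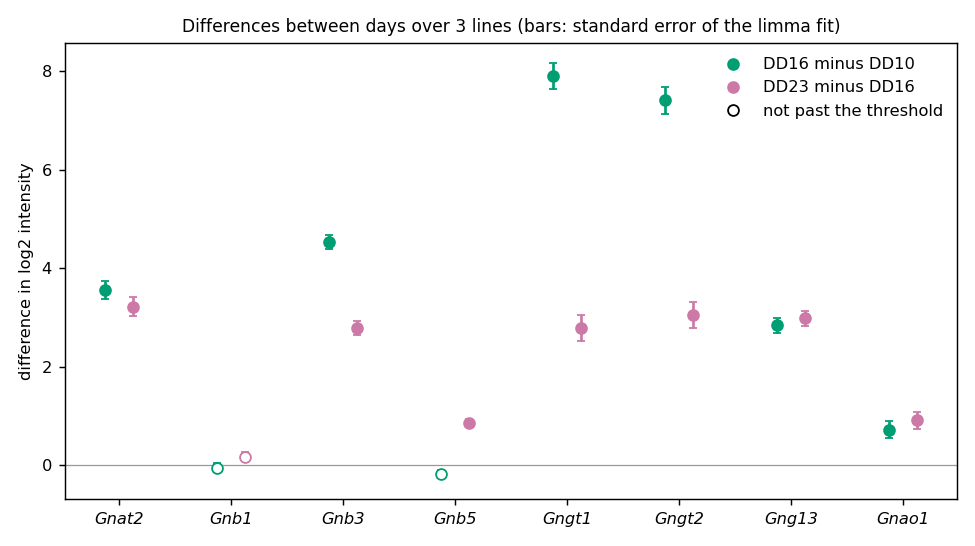
Difference in log2 intensity (y axis) for the 8 tested subunits (x axis) from DD10 to DD16 and from DD16 to DD23, with bars for the standard error of the limma fit and open points where the adjusted p was not below 0.05. The first step is the larger for Gnb3, Gngt1 and Gngt2, both steps are near 3 for Gng13 (2.84 and 2.99), and Gnb5 passes in the second step (0.86) but not in the first (-0.18). The first step of Gngt1 uses DD10 spots that were not well above background.

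Among the subunits used by ON bipolar cells, Gng13 rose in both intervals, as Gnb3 did. Gng13, the gamma subunit that partners Gnb3 in these cells and is also known from taste and olfactory receptor cells (chr17:25855911-25855970, mm9), read -3.45, -0.21 and 2.64 in WT, -2.65, 0.12 and 2.95 in B4KO and -2.79, -0.28 and 2.99 in Isl1KO. The days did not overlap, and WT was the lowest line at DD10 and at DD23. It rose by 2.84 ± 0.15 from DD10 to DD16 (7.17-fold, adjusted p = 0.000285, limma) and by 2.99 ± 0.15 from DD16 to DD23 (7.93-fold, adjusted p = 0.000634). Its probe is shown because both steps rest on it alone; read forward it leaves 2 frames free of stop codons.
Gng13 probe: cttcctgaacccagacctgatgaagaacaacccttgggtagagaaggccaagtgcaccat
Of 7 markers of olfactory and taste receptor cells, 4 rose and 1 fell from DD16 to DD23, where 19.3% and 21.9% of all genes did. The summed intensity of these markers, in units of the 75th percentile, ranged from 0.452 to 0.614 at DD16 and from 1.19 to 2.08 at DD23. The DD23 sums mostly follow Ano2, the brightest of these markers at DD23 in each line. Ano2 read -4.93, -4.17 and -4.45 at DD16 in WT, B4KO and Isl1KO, with the WT sample not well above background. At DD23 it read -0.32, -0.53 and 0.07. Gnat3, the taste alpha subunit, was well above background on no array. The part of such cells in the Gng13 values was not tested.

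Gnao1, the alpha subunit of Go, is abundant in neurons throughout the brain as well as in ON bipolar cells. Its brightest probe (chr8:96493228-96493287, mm9), assigned to transcript variant A, read 1.61, 1.82 and 2.88 in WT, 0.95, 1.81 and 2.58 in B4KO and 0.63, 1.73 and 2.63 in Isl1KO. WT was the highest line at DD10, where it came close to the DD16 samples, and the days did not overlap. The rise was 0.72 ± 0.18 from DD10 to DD16 (1.65-fold, adjusted p = 0.0213, limma) and 0.91 ± 0.18 from DD16 to DD23 (1.88-fold, adjusted p = 0.00949). The first call was lost on the slide of WT and Isl1KO alone (0.66, adjusted p = 0.130) and with the mean of the 4 Gnao1 probes (0.31, adjusted p = 0.190). It was also lost without any 1 of the B4KO or Isl1KO samples of DD10 or DD16, at 0.54 to 0.69. The second was lost on that slide (0.98, adjusted p = 0.0542) and with the mean of the probes (0.52, adjusted p = 0.0554).

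The Gnao1 probes did not move together. The gene gives Go alpha proteins that differ at their carboxyl end through alternative last coding exons, known as variants A and B. The probe assigned to variant B (chr8:96480068-96480127, mm9) read -0.87, -1.85 and -2.33 in WT, -1.95, -2.10 and -2.57 in B4KO and -2.10, -1.96 and -2.59 in Isl1KO. WT at DD10 stood 1.08 above the next sample of that day, and the DD23 samples were the lowest of each line. It is the only Gnao1 probe printed because its direction was its own, and its sequence has 1 frame free of stop codons.
Gnao1 variant B probe: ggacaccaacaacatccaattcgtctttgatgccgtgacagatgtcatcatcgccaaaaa
The other 3 probes, 2 of variant A and 1 of an Ensembl transcript, rose from DD10 to DD23 by 1.64, 1.48 and 1.07 (adjusted p = 0.000526, 0.000735 and 0.00129, limma on all probes). The variant B probe fell by 0.86 over the same span (adjusted p = 0.0175). That fall was 0.54 without the WT sample of DD10 (adjusted p = 0.0109). It did not pass on the slide of WT and Isl1KO alone (-0.98, adjusted p = 0.0648) or without the WT sample of DD23 (-0.72, adjusted p = 0.0726).

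Set against the mean of the other 3 probes within each array, the variant B probe departed by -0.86 ± 0.13 from DD10 to DD16 (adjusted p = 0.0104, limma over all probes of genes with several probes), by -1.40 ± 0.13 from DD16 to DD23 (adjusted p = 0.00793) and by -2.26 ± 0.13 from DD10 to DD23 (adjusted p = 0.000486). Such departures were called for 16.8%, 6.20% and 29.0% of 20798 probes in these comparisons. This test was added after the probe values had been seen. On the slide of WT and Isl1KO alone the departures were -0.86 (adjusted p = 0.0632), -1.51 (adjusted p = 0.0749) and -2.37 (adjusted p = 0.0126). The DD16 to DD23 departure also missed the threshold without any 1 of the WT samples of DD16 or DD23 or the Isl1KO samples of DD16 or DD23, at -1.31 to -1.43. Of 7 forebrain markers, 3 fell and 2 rose from DD10 to DD16, and 4 fell and none rose from DD16 to DD23. Over all tested genes, 18.8% fell and 21.9% rose in the first interval, and 21.9% fell and 19.3% rose in the second. The summed intensity of the forebrain markers was 33.5 in WT, 16.4 in B4KO and 18 in Isl1KO at DD10. It was 6.55 to 10 at DD16 and 2.23 to 3.83 at DD23. The DD10 sums follow Emx2 and Tbr1, the brightest 2 in each line. The median level of the 7 went from -0.26 at DD10 to 0.36 at DD16 in WT, from 0.32 to 0.10 in B4KO and from -0.64 to 0.75 in Isl1KO. At DD23 it was -1.38, -1.46 and -1.39. Of 10 amacrine and ganglion cell markers, 7 rose and none fell from DD10 to DD16, 5 rose and 4 fell from DD16 to DD23, and their summed intensity was 13.4 to 21.8 at DD10, 23 to 34.3 at DD16 and 31.9 to 39.6 at DD23. The part of forebrain, amacrine or ganglion cells in the Gnao1 values was not tested.

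**Figure D3:**
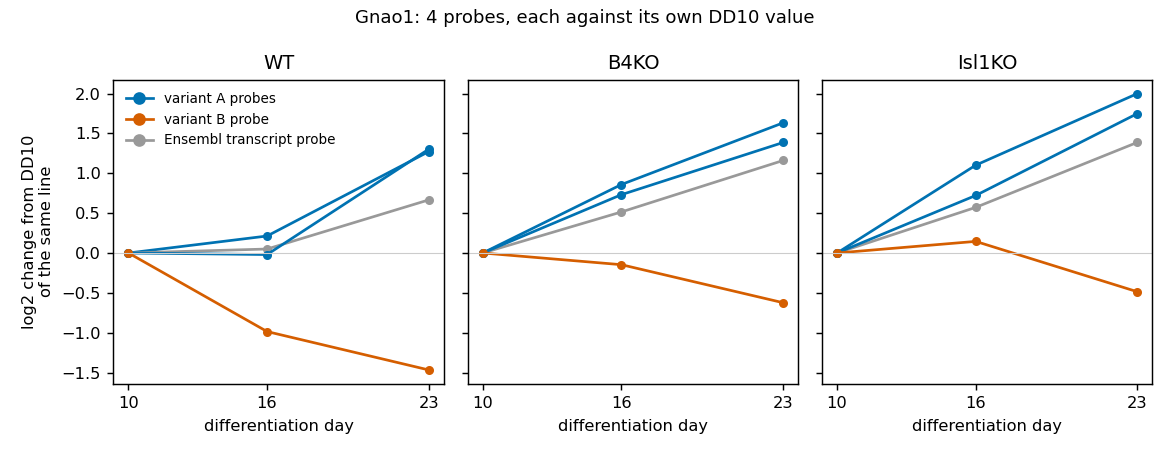
Change in log2 intensity from DD10 of the same line (y axis) against differentiation day (x axis) for the 4 Gnao1 probes, with 1 panel per line and 1 array per point. At DD23 the variant B probe is at -1.47 in WT, -0.62 in B4KO and -0.49 in Isl1KO, while the other 3 probes lie between 0.67 and 2.0.

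Gnb5, the beta subunit of RGS complexes (chr9:75193618-75193677, mm9), read 0.80, 0.60 and 1.48 in WT, 1.08, 0.97 and 1.66 in B4KO and 0.84, 0.62 and 1.61 in Isl1KO. DD16 was the lowest day and DD23 the highest day in every line, and B4KO was the highest line on each day. The difference from DD10 to DD16 was -0.18 ± 0.08 (adjusted p = 0.120, limma), and the gene rose by 0.86 ± 0.08 from DD16 to DD23 (1.81-fold, adjusted p = 0.00126). The second probe gave -0.28 (adjusted p = 0.0889) and 0.91 (adjusted p = 0.00263). Of its 8 partners, 3 rose from DD10 to DD16 and 4 rose from DD16 to DD23, with none falling, where 21.9% and then 19.3% of all genes rose. Rgs9bp, the anchor of the photoreceptor complex, rose by 2.88 in the later interval and Rgs11, a bipolar RGS protein, by 1.13 and then 2.21. Rgs9, the photoreceptor RGS protein, rose by 1.93 ± 0.51 in the later interval. Its WT sample of DD10, at -0.69 against -3.15 in B4KO and -3.31 in Isl1KO, sets the sign of its earlier difference. The partners' median difference was 0.22 and then 0.61, the first being 0.08 with 1 gene at its bound.

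The receptors, effectors and regulators of transducin rose mostly in the later interval. Of 12 tested, 7 rose from DD10 to DD16 and 12 from DD16 to DD23, with none falling. Among all tested genes 21.9% and then 19.3% rose, and 18.8% and then 21.9% fell. The partners gave larger differences in the later interval. Their median difference was 1.43 and then 3.62, or 0.89 and 3.31 with the genes that were dim throughout a day at their bounds. Pdc, phosducin, which binds free transducin beta and gamma pairs, gave the largest early difference (7.02 ± 0.40, with the WT sample of DD10 not well above background), followed by Pde6c, the cone phosphodiesterase catalytic subunit, at 5.19 ± 0.24. From DD16 to DD23 Pde6b, a rod phosphodiesterase subunit, gave 7.32 ± 1.25 with its WT sample of DD16 dim. The cone opsin Opn1sw rose by 2.22 and then by 6.15. Opn1sw and Gnat2 were well above background on all 9 arrays and Gnat1 on 2. The rod markers Sag, Cnga1 and Esrrb were so on all 9. Of the cone markers, Arr3 was so on 8, Pde6h on 6 and Opn1mw on none. The flag depends on the probe, so these counts do not rank rod against cone genes.

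Of the ON bipolar receptor complex and its partners, 8 of 10 were tested, and 5 rose and 1 fell in each interval. The median difference was 0.97 (0.66 with 1 gene at its bound) and then 1.04. Among all tested genes 21.9% rose and 18.8% fell from DD10 to DD16, and 19.3% rose and 21.9% fell from DD16 to DD23. Pcp2, a regulator of Go in ON bipolar cells, rose by 4.96 ± 0.32 and then 1.44 ± 0.32. Gpr179, which anchors RGS proteins at the mGluR6 complex, rose by 3.40 ± 0.80 from DD10 to DD16, its Isl1KO sample of DD10 being dim, and gave -1.52 ± 0.80 in the later interval. The channel gene Trpm1, which pigment cells also express, fell by 2.16 ± 0.25 and then by 1.36 ± 0.25. Of 5 tested pigment epithelium markers, 4 fell and 1 rose from DD10 to DD16, with a summed intensity of 47.6 to 52.1 at DD10 and 37.1 to 52.7 at DD16. From DD16 to DD23 only 1 of the 5 fell. The summed intensity at DD23 was 43.3 in WT, 49.7 in Isl1KO and 118 in B4KO. The DD23 sums mostly follow Ttr, whose mean level over the lines was 5.88, with Pmel next at 1.33. From DD10 to DD23 Ttr rose and each of the other tested pigment markers fell. The median level of the markers, Rpe65 included, went from 1.33 at DD10 to -1.05 at DD23 in WT. This median went from 1.31 to -0.86 in B4KO and from 1.06 to -1.58 in Isl1KO. Rpe65 was well above background on no array; the part of pigment cells in the Trpm1 values was not tested. Grm6 itself read -4.29 in WT and -4.38 in Isl1KO at DD23, the only samples in which it was well above background.

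The G protein subunits outside the retinal set showed smaller differences. Of 12 other alpha subunits, Gnal (0.89 ± 0.17), Gnaz (0.57 ± 0.14) and Gnaq (0.42 ± 0.09) rose and Gnai3 fell by 0.31 ± 0.08 from DD10 to DD16. From DD16 to DD23 none of the 12 rose and 5 fell, by 0.34 to 0.76, led by Gnai3 (0.76) and Gna12 (0.72). The medians were 0.02 and then -0.31. Among all tested genes 21.9% and then 19.3% rose, and 18.8% and then 21.9% fell. Gnb2 and Gnb4, the other beta subunits, gave 0.38 and 0.18 from DD10 to DD16 and 0.13 and 0.20 from DD16 to DD23, of which only the first Gnb2 value passed. Of 9 other gamma subunits, 4 rose and 1 fell from DD10 to DD16, led by Gng8 (1.30) and Gng3 (1.01) and by Gng2, which fell by 0.41. In the later interval Gng7 rose by 0.30 and Gng5 and Gng12 fell by 0.71 and 0.55. The medians of the gamma subunits were 0.08 and 0.06. No rise among these other subunits exceeded 1.30 in either interval, whereas 5 of the 8 tested retinal subunits rose by 2.79 or more in both.

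**Figure D4:**
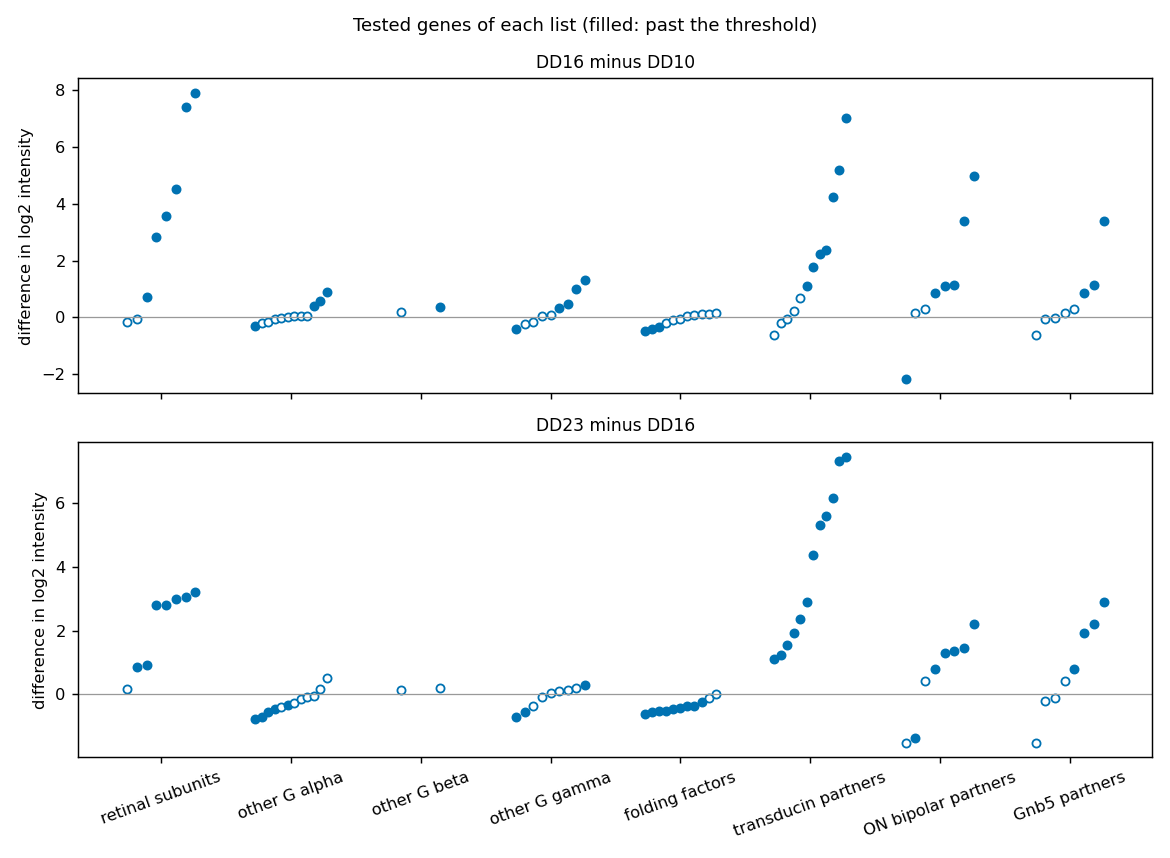
Difference in log2 intensity (y axis) of every tested gene of each list (x axis), from DD10 to DD16 above and from DD16 to DD23 below, filled where the adjusted p was below 0.05. The retinal subunits reach 7.90, a value that uses dim DD10 spots of Gngt1, while the other alpha, beta and gamma subunits stay between -0.76 and 1.30. The 12 transducin partners are all called in the lower panel, where 41.2% of all tested genes were.

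No retinal subunit passed the threshold between lines. In B4KO against WT, 0 of the 8 were called, against 22.0% of all tested genes. At an unadjusted p below 0.05 (limma) were 2 of the 8 and 8601 of the 23594 tested genes. The 2 subunits were Gng13, at 0.48 ± 0.15 (adjusted p = 0.0718), and Gnb5, at 0.28 ± 0.08 (adjusted p = 0.0563). Gng13 read higher in B4KO than in WT by 0.80, 0.33 and 0.31 at DD10, DD16 and DD23. Gnb5 read higher by 0.28, 0.37 and 0.18 with its brightest probe, and by 0.33, 0.37 and -0.07 with the other. Both sit near the threshold: each passed under some settings, Gnb5 under 4 of 19 and Gng13 under 3 of 19. With the fit limited to probes above background on every array, they gave adjusted p = 0.0418 and 0.0491. The largest B4KO difference that did not reach an unadjusted p below 0.05 was that of Gngt2, 0.51 ± 0.27, with the dim WT sample of DD10 in it.

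In Isl1KO against WT, 0 of the 8 were called, against 0.00424% of all tested genes. At an unadjusted p below 0.05 (limma) were 1 of the 8, Gnao1, and 1924 of the 23594 tested genes. Gnao1 gave -0.44 ± 0.18 (adjusted p = 0.608), made of -0.98, -0.09 and -0.25 at DD10, DD16 and DD23. The photoreceptor subunits gave between -0.09 and 0.04. For Isl1KO against B4KO, 0 of the 8 were called, against 21.9% of all genes. At an unadjusted p below 0.05 (limma) were 1 of the 8 and 8232 of the 23594 tested genes. The subunit nearest to the threshold was Gnb5 at -0.22 ± 0.08 (adjusted p = 0.111). These 3 comparisons share their samples. With SEs of 0.08 to 0.27, line differences of the size seen for Gnao1 or Gngt2 could not be separated from the spread between arrays.

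At DD23 the Isl1KO sample had the highest reading of the 3 lines for the 3 cone transducin subunits and for Gngt1, Gnat1 and Gng13. It exceeded WT by 0.49 for Gnat2, 0.22 for Gnb3, 0.21 for Gngt2, 0.66 for Gngt1 and 0.81 for Gnat1, each from 1 array per line. At DD16 its differences from WT were -0.29 for Gnat2, -0.35 for Gnb3, -0.29 for Gngt2 and -0.15 for Gngt1. A second model asked whether a knockout's gap to WT was another at DD23 than over DD10 and DD16. For Isl1KO it gave 1.12 ± 0.32 for Gngt1 (adjusted p = 0.961, limma) and 0.79 ± 0.17 for Gnat2 (adjusted p = 0.871). In that comparison 0 of 8 and 0% of all genes were called. At an unadjusted p below 0.05 (limma) were 2 of the 8 and 1161 of the 23594 tested genes. For B4KO the departures ran from -0.55 to 0.26, with 0 of 8 and 0% of all genes called. At an unadjusted p below 0.05 (limma) were 0 of the 8 and 1429 of the 23594 tested genes. Summed intensity of 7 rod markers at DD23 was 88.4 in Isl1KO, 72.2 in WT and 62.8 in B4KO, and that of 7 cone markers 52.8, 40.8 and 32.2; the part of photoreceptor number in these readings was not tested.

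**Figure D5:**
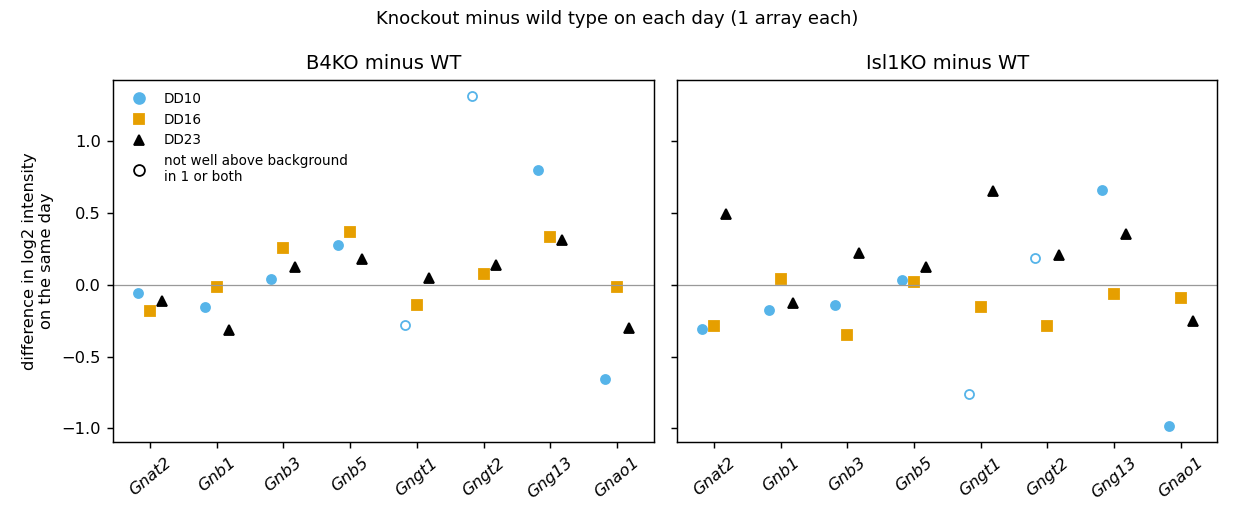
Difference in log2 intensity of a knockout from WT on the same day (y axis) for the 8 tested subunits (x axis), 1 array per value, with symbols for DD10, DD16 and DD23 and open symbols where either spot was not well above background. Gnat2, Gnb3 and Gngt2 in Isl1KO lie below 0 at DD16 and above 0 at DD23, Gng13 in B4KO lies above 0 on all 3 days, and Gnao1 in Isl1KO is lowest at DD10 (-0.98).

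The genes most like each subunit over the 9 arrays were ranked by Pearson's correlation among 15218 named genes; the arrays share days and lines, so these values describe a shared time course. Gngt2 was closest to Crx, the photoreceptor homeodomain factor, Cdhr1 and Arhgdig (r = 0.998 to 0.999). Gnat2 was closest to Atp1b2, Lrit1 and Paqr7 (r = 0.999 for each), and Gnb3 to Rasgrf2, Impg2 and Klc3 (r = 0.999 for each). Gngt1 was closest to Rp1l1, a photoreceptor axoneme gene, and Cacna2d4 (r = 0.999 and 0.998), and Gng13 to Neurl1a, Cplx3 and Dnaja4 (r = 0.997 to 0.998). Gnao1 was closest to Rasgef1a, Gdap1 and Pnmal2 (r = 0.992 to 0.995), and Gnb5 to Rabgef1, Card19 and Lbhd1 (r = 0.981 to 0.993). The number of genes with r above 0.95 was 836 for Gnat2, 765 for Gnb3, 734 for Gng13, 650 for Gngt2, 607 for Gngt1, 286 for Gnao1, 76 for Gnb5 and 0 for Gnb1, whose closest gene, Esr2, had r = 0.940. Within the set, the rod gamma subunit Gngt1 and the cone gamma subunit Gngt2 had r = 0.995 over the 9 arrays, and Gnat2 and Gng13 r = 0.991.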

How the data were processed

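RNA of 9 retinal organoid samples was hybridised to Agilent single-colour arrays, 1 array per sample. Per the file headers, the authors read the scans with Agilent Feature Extraction, version 12.0.3.1, whose processed signal is an intensity after background subtraction and spatial detrending, not normalized between arrays. The same deposited files hold mean and local background intensity and, as other columns, 0 or 1 flags for background, saturation and outliers. In the deposited value table the authors gave that intensity as a ratio to 1 constant per array. Probe coordinates are those of mm9, per the file headers.

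Spots of a probe were averaged, 102 probes with outlier flags were left out, and log2 of the 75th percentile of each array was subtracted. A gene was represented by its brightest probe well above background on at least 3 arrays. Of 56605 probes, 32994 took their name from RefSeq (GRCm38.p6) and 23611 kept the file's name. limma 3.58.1 in R 4.3.3 fitted line and day as additive terms (4 residual degrees of freedom, 2.01 prior), and a second model a DD23 term in each knockout (2 residual degrees of freedom); p-values were Benjamini-Hochberg adjusted over all genes, at 0.05. The scripts were tested on simulated data. Where a group was never well above background, a fold is a lower bound against the higher of the probe's own value and the lowest spot well above background, averaged over arrays on the log2 scale. Nothing in the labels says that samples came from separate differentiations, so p-values measure only the spread between these samples. The number of arrays limits the precision.

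The subunits, the lists and the rules were chosen with earlier results of these data known. Named genes were the subunits, for each list the 2 largest rises and 2 largest falls past the threshold in an interval and any gene past it between lines, and the 3 genes most correlated with each subunit; some genes that meet this rule are not reported here. Bhlhe23, Isl1, Crx, Grm6, Vsx1, Opn1mw, Cabp5, Rpe65, Best1, Tbr1, Gnat3, Opn1sw, Rgs9, Gnaq and Cct8 were named outside that rule, after their values were seen. Alternatives were quantile normalization, another centring, normexp with an offset of 50, the deposited table, other filters, a floor for dim values, a mean over probes, a probe-level fit, a trended and robust variance model, 1 slide alone and each array left out. Proteins, and promoters of Gnat1, Gnb3 and Gngt2, were not analysed here.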

Additional observations from a re-analysis of the deposited data

How the results depend on the processing

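The counts of subunits called between days kept within 1.5 times under every setting run. Leaving out each array in turn gave 5 to 6 from DD10 to DD16, 7 from DD16 to DD23, 7 from DD10 to DD23 and 0 in each comparison of lines. Of all 23594 tested genes, these fits called 5899 to 9079, 6510 to 9337 and 12038 to 14038 between days. Between lines they called 3417 to 4621 in B4KO against WT, 0 to 2 in Isl1KO against WT and 3288 to 4789 in Isl1KO against B4KO. In B4KO against WT the count of 0 became 1 with centring on the median (Gnb5), with normexp (Gng13) and with the deposited table (Gnb5), and 2 with the strict brightness filter and with the trended and robust variance model (both genes); the strict filter tests fewer genes, and for the others the cause was not tested. The variant B departure of Gnao1 on the slide of WT and Isl1KO alone was -0.86 from DD10 to DD16 and -1.51 from DD16 to DD23, neither past the threshold with fewer samples. With each array left out, the 3 departures ran from -0.94 to -0.73, from -1.52 to -1.31 and from -2.37 to -2.13. No result reversed. Over all genes, 9606 were called from DD10 to DD16, against 4899 on that slide alone, 5899 without the Isl1KO sample of DD10 and 5917 without that of DD16, and 14331 from DD10 to DD23, against 21637 with every probe as a feature. In B4KO against WT 5193 genes were called, against 3417 without the WT sample of DD10 and as many without that of DD23, and in Isl1KO against B4KO 5157, against 3288 without the Isl1KO sample of DD16. In Isl1KO against WT 1 gene was called, against 4548 with no brightness filter, 11 with normexp, 14 with the trended and robust model, 3 on that slide, 2 without the Isl1KO sample of DD10 and 0 without the WT sample of DD16 or DD23. Dim spots limit Gnat1 and the DD10 values of Gngt1 and, in WT, Gngt2, and 1 sample per line and day limits every comparison. Day differences were taken within line throughout, since line was a term of the fit.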

Other observations

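The chaperonin CCT and its helpers fold G protein beta subunits before they join gamma, and Ric8a and Ric8b fold alpha subunits. Of 11 such genes tested, 0 rose and 3 fell from DD10 to DD16, namely Cct3 (by 0.48), Ric8b (by 0.41) and Cct8 (by 0.35). From DD16 to DD23, 0 rose and 9 fell, with Tcp1 falling by 0.61 ± 0.09 and Cct5 by 0.56 ± 0.08 (adjusted p = 0.00374 and 0.00446, limma). Their median difference was -0.06 and then -0.43, against 0.03 and 0.01 over all tested genes, of which 18.8% and then 21.9% fell.

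Of the G protein subunits outside the retinal set, 3 of 12 alpha, 1 of 2 beta and 1 of 9 gamma subunits were called in B4KO against WT, where 22.0% of all genes were called, so the share is near that of all genes. B4KO and its slide cannot be told apart. Gnb4, a beta subunit, differed in B4KO from WT by -0.84 ± 0.10 (adjusted p = 0.00216, limma), and Gng4, a gamma subunit, by -0.67 ± 0.14 (adjusted p = 0.0223). Gnas, the stimulatory alpha subunit, was higher by 0.34 ± 0.07 and Gnai3 by 0.29 ± 0.08. Gna15, well above background on 1 of 3 WT arrays and on no B4KO array, was at least 1.34-fold higher in WT (adjusted p = 0.0333). The chaperonin genes Tcp1 and Cct7 were higher by 0.36 and 0.31. Among partners, Rgs7bp gave -0.63 ± 0.17 and Pde6h -0.94 ± 0.25, the latter with its DD10 samples dim in every line. Gpr158 passed as well, but it was well above background on no B4KO array and has no fold. Isl1KO against B4KO, which shares the B4KO samples, called Gna14 (1.08), Gnb4 (0.86), Gng4 (0.85), Gnas (-0.54), Gna12 (-0.34) and Cct2 (-0.28), Gna15 at least 1.53-fold higher in Isl1KO, and Gpr158 with no fold; 21.9% of all genes were called there. In Isl1KO against WT none of these lists held a called gene.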
